A study of Ovis aries with 8 samples.

Results

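The genes described here carry the insulin and glucagon signals in liver. They are the 9 genes INSR, IRS1, IRS2, PIK3R1, AKT1, AKT2, FOXO1, FOXO3 and GCGR, taken by their symbols from a table of 27729 sheep genes. RNA was sequenced from the liver of 8 lambs, 4 labelled ADL and 4 labelled RES. Both names stand unexplained in the labels; the title speaks of fattening lambs and of restricted feed during suckling. The labels give no breed, sex, age or diet, and all 8 lambs had a slaughter weight of 27 kg. Each library comes from its own lamb.

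Insulin binds its receptor on hepatocytes, and the receptor phosphorylates docking proteins that recruit phosphoinositide 3-kinase. The lipid this kinase makes brings AKT kinases to the membrane, where they are switched on. AKT then phosphorylates FOXO transcription factors and keeps them out of the nucleus, which lowers transcription of genes for glucose output. Glucagon acts in the opposite sense through a receptor that raises cyclic AMP. In ruminants most glucose is made by the liver rather than absorbed, so both hormones matter for it after feeding as well as in fasting. Much of this control works through phosphorylation, which RNA levels do not show.

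None of the 9 genes differed between RES and ADL livers beyond the spread between lambs. All 9 were expressed, from the sparse docking protein gene IRS2 at a mean of 1.40 TPM to the glucagon receptor gene GCGR at 33.0 TPM. TPM is a share of transcripts, corrected for gene length, that sums to an equal total in every library. For every one of the 9 the range of the RES lambs overlapped that of the ADL lambs. The limma fit over the 13437 genes that averaged 1 TPM or more called 0 of the 9 at an adjusted p under 0.05, and 0 at an unadjusted p under 0.05. In that fit 0 of all genes tested (0%) passed the adjusted threshold, while 1594 (11.9%) had an unadjusted p under 0.05. The adjusted p of the 9 ran from 0.453 for GCGR to 0.964 for IRS2, and limma's voom on reads recovered from the table called 0 of the 9 and 0 of all genes (0%) as well. With voom the smallest unadjusted p of the 9 was 0.296, while 1052 of all genes (7.83%) lay under 0.05. The groups failed to overlap for 7.39% of all genes tested.

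Facts of the whole table bear on these values. The reads assigned to genes numbered 14514084 to 16182407 per lamb. Hepatocyte markers dominated, with all 8 markers of the list above 1 TPM. Their summed level ran from 174880 to 194320 TPM in ADL and from 133830 to 177230 TPM in RES. Most of this sum was albumin (ALB), at a mean of 127560 TPM. The 8 markers, named outside the rule, did not share a direction in the authors' deposited log2 fold changes (RES over ADL). ALB, TTR, TF, SERPINA1 and APOA1 lay below 0, from -0.13 (TTR) to -0.42 (TF). APOB, FGB and HNF4A lay above it, from 0.05 (APOB) to 0.11 (FGB). The authors' adjusted p was 0.0123 for TF and above 0.05 for the other markers of this list. Albumin alone took 13.2 to 14.8% of TPM in ADL lambs and 9.43 to 13.4% in RES lambs. Pancreas and skeletal muscle markers were at or near 0, with at most 0.677 and 0.805 TPM summed over each list, and GCG, the glucagon gene, was listed at 0 in every lamb. Macrophage, endothelial, stellate, bile duct, lymphocyte and adipocyte markers had ranges that overlapped between the groups, and 1 lymphocyte and 1 hepatocyte marker had an unadjusted p under 0.05. The part of these shifts in the values of the 9 genes was not tested beyond the scaling given here. TPM size factors, the medians of each library's ratios to a common reference, ran from 0.939 to 0.988 in ADL and from 1.02 to 1.08 in RES, without overlap. The median gene was 0.09 log2 units above 0 (RES minus ADL) in TPM as deposited and 0.0056 above 0 after division by size factors. In bulk liver, fewer cells of a type and less RNA per cell cannot be told apart.

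**Figure D1:**
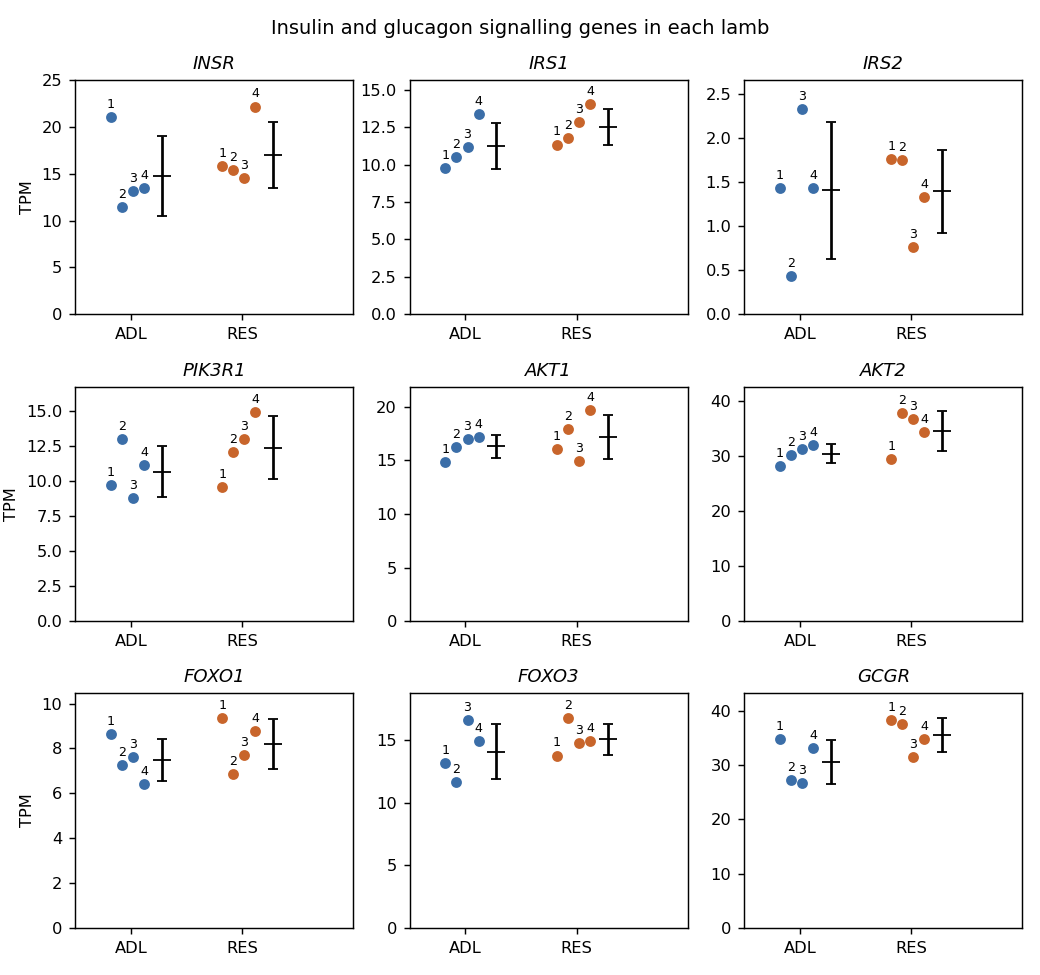
TPM of each gene in each lamb, with ADL lambs in blue and RES lambs in orange, lamb numbers above the points, and the group mean with its SD (n = 4) as a black bar to the right; every axis starts at 0. The groups overlap in all 9 panels, and INSR has 1 high lamb in each group, at 21.1 and 22.2 TPM.

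INSR encodes the insulin receptor, a receptor tyrosine kinase. It is annotated on chromosome 5 from 13669989 to 13818000 on the minus strand, with 22 exons; the sources used here give neither the genome build nor the counting base of these positions. INSR stood at 21.1, 11.4, 13.2 and 13.5 TPM in ADL lambs 1 to 4 and at 15.8, 15.4, 14.5 and 22.2 TPM in RES lambs 1 to 4. ADL lamb 1 and RES lamb 4 lay well above the other lambs of their groups, which lay between 11.4 and 15.8 TPM. The means were 14.8 ± 4.28 TPM in ADL and 17.0 ± 3.51 TPM in RES (SD, n = 4 in each group, as in all TPM means that follow). On the log2(TPM + 1) scale RES minus ADL was 0.20 ± 0.19 (SE), with a 95% interval from -0.23 to 0.64 and an adjusted p of 0.658. These lambs set the size of that difference: it was 0.38 without ADL lamb 1 (adjusted p = 0.534) and 0.07 without RES lamb 4 (adjusted p = 0.911). The within-group SD of INSR, 0.31 on the log2(TPM + 1) scale, exceeded that of 81.6% of the genes tested. INSR had 780 to 1441 reads per lamb, so counting error alone would give an SD of about 0.045 log2 units; this covers counting error only, and reads amplified by PCR are not independent molecules.

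The docking proteins of the receptor come next. IRS1, on chromosome 2 from 228031477 to 228099015 on the minus strand, stood at 9.79, 10.5, 11.2 and 13.4 TPM in ADL and at 11.3, 11.7, 12.8 and 14.0 TPM in RES lambs 1 to 4. The RES lambs all exceeded the ADL mean of 11.2 ± 1.53 TPM, but 1 ADL lamb lay among them. The difference was 0.15 ± 0.11 log2 units (95% interval -0.10 to 0.40, adjusted p = 0.584), and the RES mean was 12.5 ± 1.21 TPM.

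IRS2, the other main docking protein of liver and itself a known FOXO target, lies on chromosome 10 from 83944696 to 83951105 on the minus strand. It stood at 1.43, 0.433, 2.33 and 1.44 TPM in ADL and at 1.76, 1.75, 0.760 and 1.33 TPM in RES lambs 1 to 4. Both the lowest and the highest lamb were ADL lambs. With means of 1.41 ± 0.774 and 1.40 ± 0.470 TPM the groups lay close together, and the TPM means and the log2 values differed in sign (log2 difference 0.03 ± 0.26, 95% interval -0.54 to 0.61, adjusted p = 0.964). That interval is the widest of the 9. Only 13 to 76 reads per lamb lay behind IRS2, which corresponds to a counting SD of 0.25 log2 units. Its within-group SD of 0.42, on a log2(TPM + 1) scale that understates the spread of so low a gene, exceeded that of 90.7% of genes tested.

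PIK3R1 encodes the p85 alpha regulatory subunit through which phosphoinositide 3-kinase binds the docking proteins. The gene lies on chromosome 16 from 11393703 to 11486669 on the minus strand. ADL lambs 1 to 4 had 9.69, 13.0, 8.77 and 11.1 TPM and RES lambs 1 to 4 had 9.57, 12.0, 13.0 and 14.9 TPM. The lowest RES lamb lay below the second lowest ADL lamb, and RES lamb 4 was the highest of all. The means of 10.6 ± 1.84 and 12.4 ± 2.21 TPM gave a difference of 0.20 ± 0.15 log2 units (95% interval -0.15 to 0.54, adjusted p = 0.59).

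Of the AKT kinases, AKT2 is the one tied most closely to insulin's metabolic effects in mouse liver, and AKT1 is known more for growth. AKT1, on chromosome 18 from 67772687 to 67860528 on the minus strand, had 14.8, 16.2, 17.0 and 17.2 TPM in ADL and 16.1, 17.9, 15.0 and 19.7 TPM in RES lambs 1 to 4. Its groups overlapped broadly, with means of 16.3 ± 1.06 and 17.2 ± 2.07 TPM and a difference of 0.06 ± 0.10 log2 units (95% interval -0.16 to 0.29, adjusted p = 0.797). The gene length used for AKT1 is only 885 nt and 99 to 128 reads per lamb lay behind it. Its within-group SD of 0.13 log2 units is thus about its counting SD, also 0.13. AKT2, on chromosome 14 from 48669362 to 48691149 on the minus strand, had 28.1, 30.2, 31.3 and 31.9 TPM in ADL and 29.4, 37.7, 36.6 and 34.4 TPM in RES lambs 1 to 4. RES lambs 2, 3 and 4 exceeded every ADL lamb, and RES lamb 1 lay within the ADL range. The means were 30.4 ± 1.67 and 34.5 ± 3.71 TPM and the difference was 0.17 ± 0.10 log2 units (95% interval -0.04 to 0.39, adjusted p = 0.482). Without RES lamb 1 it was 0.25, with an adjusted p of 0.371.

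FOXO1 and FOXO3 are the transcription factors that AKT holds in check, and FOXO1 is best known in liver for driving genes of glucose output. FOXO1, on chromosome 10 from 22220516 to 22227568 on the plus strand, stood at 8.65, 7.25, 7.62 and 6.39 TPM in ADL and at 9.36, 6.86, 7.71 and 8.80 TPM in RES lambs 1 to 4. The lowest RES lamb lay below 3 of the 4 ADL lambs. FOXO1 means were 7.48 ± 0.933 and 8.18 ± 1.11 TPM, a difference of 0.11 ± 0.12 log2 units (95% interval -0.16 to 0.38, adjusted p = 0.692). FOXO3, on chromosome 8 from 28582569 to 28613823 on the minus strand, stood at 13.1, 11.6, 16.6 and 14.9 TPM in ADL and at 13.8, 16.8, 14.8 and 14.9 TPM in RES lambs 1 to 4. The RES lambs lay inside or just above the wider ADL range. Means of 14.1 ± 2.17 and 15.1 ± 1.25 TPM gave a difference of 0.10 ± 0.12 log2 units (95% interval -0.17 to 0.36, adjusted p = 0.729).

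GCGR encodes the glucagon receptor, which couples to the G protein that stimulates adenylyl cyclase. It lies on chromosome 11 from 50173568 to 50179937 on the minus strand, with 13 exons. Its levels were 34.8, 27.4, 26.8 and 33.2 TPM in ADL lambs 1 to 4 and 38.4, 37.6, 31.5 and 34.9 TPM in RES lambs 1 to 4. ADL lambs 2 and 3 were the low ones; RES lambs 1, 2 and 4 lay above every ADL lamb, lamb 4 by very little, and RES lamb 3 lay among the ADL lambs. GCGR had the largest difference of the 9 in the limma fit to the deposited TPM values, 0.22 ± 0.11 log2 units (95% interval -0.03 to 0.47, adjusted p = 0.453), with means of 30.5 ± 4.06 and 35.6 ± 3.13 TPM. Its unadjusted p was 0.0796, and after division by size factors the difference was 0.12 ± 0.11 (unadjusted p = 0.302). The unadjusted p was 0.0348 when ADL lamb 1 was left out, where the adjusted p was 0.534.

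In the deposited TPM values all 9 differences lay above 0, with a median of 0.15 log2 units, but 71.0% of all genes tested did too, with a median of 0.09. After division by size factors, 7 of the 9 remained above 0 and AKT1 (-0.03) and IRS2 (-0.03) lay below it; the median of the 9 was then 0.05, against 0.0056 for all genes, of which 51.6% lay above 0. Quantile normalization put AKT1, IRS2, FOXO1 and FOXO3 below 0. In the authors' deposited table, which holds their DESeq2 result, the shrunken log2 fold changes of the 9 run from -0.05 (IRS2) to 0.11 (GCGR). An adjusted p stands in the authors' deposited table for 6 of the 9, from 0.803 for GCGR to 0.973 for FOXO1, against 13 of its 5627 genes with one (0.231%) under 0.05. No adjusted p is given there for AKT1, FOXO3 or IRS2, the members with the lowest mean normalized counts (115, 159 and 42.5).

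**Figure D2:**
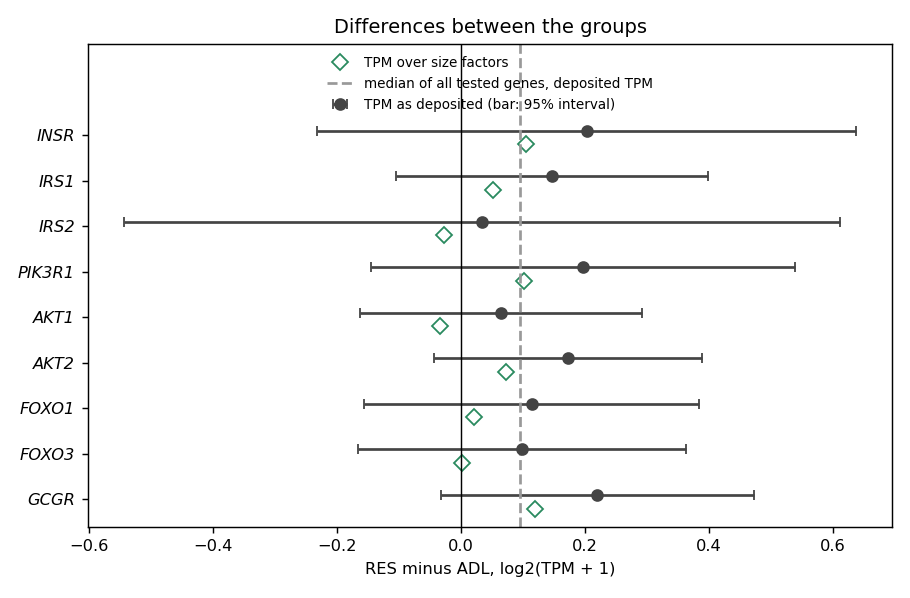
RES minus ADL on the log2(TPM + 1) scale for each gene, with the limma 95% interval for the deposited TPM values (dots and bars) and the value after division by size factors (diamonds); the dashed line marks the median of all genes tested, 0.09. Every interval includes 0, and every diamond lies to the left of its dot.

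The order of the levels was shared by all lambs only in part. GCGR and AKT2 stood at the top with means of 33.0 and 32.5 TPM, and GCGR exceeded AKT2 in 4 of 8 lambs. AKT2 exceeded AKT1 (16.7 TPM) in all 8 lambs. INSR (15.9 TPM) was not ordered beyond its spread against AKT1 or FOXO3 (14.6 TPM): AKT1 exceeded INSR in 6 lambs and INSR exceeded FOXO3 in 3 of 8, while AKT1 exceeded FOXO3 in all 8. FOXO3 exceeded IRS1 (11.9 TPM) in all 8, while IRS1 and PIK3R1 (11.5 TPM) could not be ranked, IRS1 being higher in 4 of 8. PIK3R1 exceeded FOXO1 (7.83 TPM), and FOXO1 exceeded IRS2, in all 8 lambs. Among the genes tested, GCGR exceeded 79.6% in mean TPM and IRS2 exceeded 5.77%. These ranks rest on the gene lengths in the table, and the short lengths given for AKT1 (885 nt) and FOXO3 (1403 nt) enter their levels directly.

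Ratios between related genes within a lamb do not move with the scaling of its library, and 3 were compared. IRS2 over IRS1 was 0.146, 0.0411, 0.208 and 0.108 in ADL and 0.155, 0.149, 0.0592 and 0.0947 in RES lambs 1 to 4, so IRS1 was the major docking transcript in every liver. The groups overlapped, with a difference of -0.01 ± 0.60 log2 units (exact two-sided permutation p = 1; 1 after adjustment over the 3 ratios). AKT2 over AKT1 was 1.90, 1.86, 1.85 and 1.86 in ADL and 1.83, 2.10, 2.45 and 1.75 in RES lambs 1 to 4. The difference between the means was 0.11 ± 0.11 log2 units (exact permutation p = 0.429, 1 after adjustment). The 4 ADL ratios had an SD of 0.017 log2 units, below the counting SD of 0.15 for these reads, and the RES ratios an SD of 0.22; that contrast in spread was seen after the fact and not tested. FOXO3 over FOXO1 was 1.52, 1.60, 2.18 and 2.33 in ADL and 1.47, 2.44, 1.91 and 1.70 in RES lambs 1 to 4. The groups spanned nearly the same range, with a difference of -0.02 ± 0.22 log2 units (exact permutation p = 0.943, 1 after adjustment). The level of each ratio, though not its group difference, rests on the gene lengths used. These were 1403 nt for FOXO3 and 5518 nt for FOXO1, with 126 to 196 and 290 to 385 reads per lamb. With 4 lambs against 4 the smallest p this test can give is 0.0286.

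**Figure D3:**
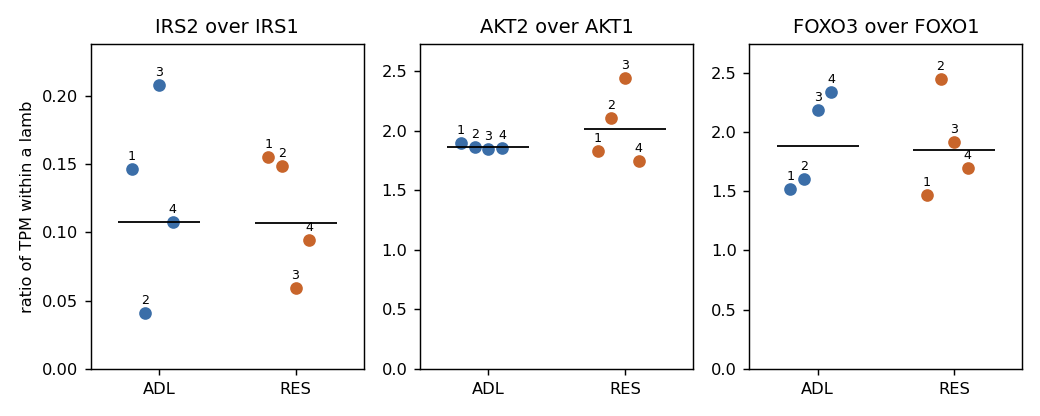
Ratio of TPM between related genes in each lamb (numbered points), with ADL in blue, RES in orange and the geometric mean of each group as a line. The ADL lambs lie between 1.85 and 1.90 for AKT2 over AKT1, and the groups overlap for all 3 ratios.

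Other genes of both pathways were described from 5 lists. In each of the 5 lists 0 genes passed the limma threshold over all genes tested, and 0 had an adjusted p under 0.05 in the authors' deposited table. In the relay from the insulin receptor to its kinases, 27 of 31 genes were tested. Of these, 24 had a difference above 0 and 3 below, and the median of 0.10 log2 units was close to the 0.09 of all genes. After division by size factors the median was 0.0037, with 16 above 0 and 11 below. The adaptor gene GRB2 had 31.4, 35.3, 32.3 and 34.6 TPM in ADL lambs 1 to 4 and 42.0, 41.0, 39.0 and 39.3 TPM in RES lambs 1 to 4. All RES lambs exceeded all ADL lambs for GRB2 and for its partner SOS1, the exchange factor for RAS, with SOS1 means of 7.84 ± 0.498 and 10.2 ± 1.14 TPM. Both were short of the threshold (GRB2 0.27 ± 0.07 log2 units, SOS1 0.33 ± 0.10, adjusted p = 0.395 each). They were 2 of 27 genes with an unadjusted p under 0.05 on the higher side, where all genes had 10.4%, and 2 of 27 whose RES lambs lay wholly above the ADL lambs, where all genes had 6.61%. After division by size factors limma's unadjusted p was 0.0473 for GRB2 and 0.0192 for SOS1. On that scale 2 of 27 were higher and 1 lower at 0.05, against 457 higher and 571 lower of all 13437. Again 0 of all genes passed the adjusted threshold. Lowest by p on the lower side in the deposited TPM values were MLST8, a subunit of the mTOR complexes, at 6.32 ± 1.28 and 4.97 ± 0.779 TPM, and the kinase subunit PIK3CD at 2.23 ± 0.190 and 1.95 ± 0.332 TPM. Limma's unadjusted p after division by size factors was 0.027 for MLST8 and 0.0861 for PIK3CD. GYS2, the liver glycogen synthase, was the most abundant gene of this list at 53.1 ± 11.9 and 56.2 ± 14.5 TPM. The docking gene IRS4, named outside the rule, was listed at 0 in all lambs.

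Among genes that dampen the insulin signal, 19 of 20 were tested, 16 above 0 and 3 below. Their median was 0.09 log2 units, or -0.0067 after division by size factors, with 9 above 0 and 10 below. PPP2CA, a catalytic subunit of protein phosphatase 2A, stood at 66.0, 73.9, 64.8 and 72.4 TPM in ADL and at 82.1, 76.0, 80.1 and 82.2 TPM in RES lambs 1 to 4. It was higher in every RES lamb than in any ADL lamb but short of the threshold, with means of 69.3 ± 4.54 and 80.1 ± 2.88 TPM and a difference of 0.21 ± 0.08 log2 units (adjusted p = 0.395). After division by size factors its unadjusted p was 0.16. In this list 2 of 19 genes had every RES lamb above every ADL lamb, where all genes had 6.61%. ENPP1 (33.7 ± 4.86 and 31.0 ± 2.95 TPM) and PRKCD (6.40 ± 1.67 and 6.06 ± 1.53 TPM) had the smallest p on the lower side.

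The glucagon and cyclic AMP list had 28 of 36 genes tested, with 19 above 0, 9 below and a median of 0.07 log2 units. The median was -0.02 after division by size factors, with 11 above 0 and 17 below. LOC101115640, which a sheep RefSeq gene table names GNAS, the stimulatory G protein that GCGR activates, was the most abundant at 235 ± 9.10 and 233 ± 29.7 TPM. DPP4, the protease that cleaves incretin hormones, followed at 168 ± 29.1 and 162 ± 22.3 TPM. CREB1, the transcription factor at the end of the cascade, stood at 4.68, 5.20, 4.20 and 4.56 TPM in ADL and at 5.39, 5.43, 5.50 and 5.83 TPM in RES lambs 1 to 4. CREB1 and its coactivator CRTC3 (1.80 ± 0.101 and 2.45 ± 0.324 TPM) did not overlap between groups, and neither passed (adjusted p = 0.413 and 0.395). They were 2 of 28 genes whose RES lambs lay wholly above the ADL lambs, where all genes had 6.61%. After division by size factors limma's unadjusted p was 0.153 for CREB1 and 0.0407 for CRTC3. On the lower side LOC101117505, described as the phosphodiesterase 4A gene (5.65 ± 0.394 and 4.81 ± 1.25 TPM), and the arrestin gene ARRB1 (9.13 ± 1.31 and 8.36 ± 1.92 TPM) had the smallest p. The receptors of the related gut hormones, GLP1R (mean 0.0265 TPM) and GIPR (0.00349 TPM), lay below the minimum for testing and are named outside the rule.

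Target genes that FOXO factors or cyclic AMP raise in fasting also showed no change past the threshold. Of 25 genes 24 were tested, 14 above 0 and 10 below, with a median of 0.05 log2 units, or -0.03 after division by size factors. The cell cycle inhibitor CDKN1A (8.58 ± 1.92 and 11.9 ± 2.44 TPM) and the pseudokinase TRIB1 (10.3 ± 1.96 and 13.6 ± 2.57 TPM) had the smallest p on the higher side, with adjusted p of 0.411 and 0.424. On the lower side were APOC3, an inhibitor of triglyceride clearance (5653 ± 508 and 4634 ± 1133 TPM), and the transcriptional coregulator CITED2 (24.9 ± 5.30 and 20.9 ± 1.66 TPM), with adjusted p of 0.484 and 0.509. Limma's unadjusted p after division by size factors was 0.0808 for CDKN1A, 0.103 for TRIB1, 0.0519 for APOC3 and 0.0471 for CITED2. SELENOP, the plasma selenium carrier, was the most abundant at 5524 ± 1074 and 6034 ± 956 TPM. Named outside the rule as the best-known targets, IGFBP1 stood at 1072 ± 748 and 980 ± 452 TPM, PCK1 at 1713 ± 543 and 1550 ± 402 TPM and G6PC at 405 ± 112 and 523 ± 229 TPM (adjusted p = 0.956, 0.846 and 0.673).

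Genes that insulin is known to induce, most of them for fatty acid synthesis, had the largest median of the 5 lists. All 13 tested of 14 had a difference above 0, and the median was 0.61 log2 units; after division by size factors it was 0.51, with 12 above 0 and MLXIPL, named after its value was seen, below. These genes are known to share regulators, so their common sign is not 13 separate observations. ELOVL6, a fatty acid elongase, stood at 11.4, 21.9, 16.5 and 26.5 TPM in ADL and at 29.9, 27.5, 24.9 and 31.4 TPM in RES lambs 1 to 4. THRSP, a regulator of lipogenesis, stood at 33.0, 124, 78.1 and 107 TPM in ADL and at 109, 374, 109 and 307 TPM in RES lambs 1 to 4. In both genes ADL lamb 1 was the lowest of the 8, and the groups overlapped (ELOVL6 0.61 ± 0.22 log2 units, adjusted p = 0.395; THRSP 1.31 ± 0.52, adjusted p = 0.409). SCD, the delta-9 desaturase, was the most abundant at 465 ± 234 and 847 ± 540 TPM, followed by INSIG1 at 150 ± 40.5 and 186 ± 62.8 TPM. The list's median was 0.32 without ADL lamb 1 and 0.21 without RES lamb 4. At an unadjusted p under 0.05 on the higher side were 2 of 19 brake genes, 3 of 28 cyclic AMP genes, 1 of 24 FOXO target genes and 3 of 13 insulin-induced genes, against the 10.4% of all genes tested. After division by size factors these counts were 0 of 19, 1 of 28, 0 of 24 and 2 of 13, against 457 of 13437. On the lower side of that scale they were 0 of 19, 0 of 28, 1 of 24 (CITED2) and 0 of 13, against 571 of 13437.

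**Figure D4:**
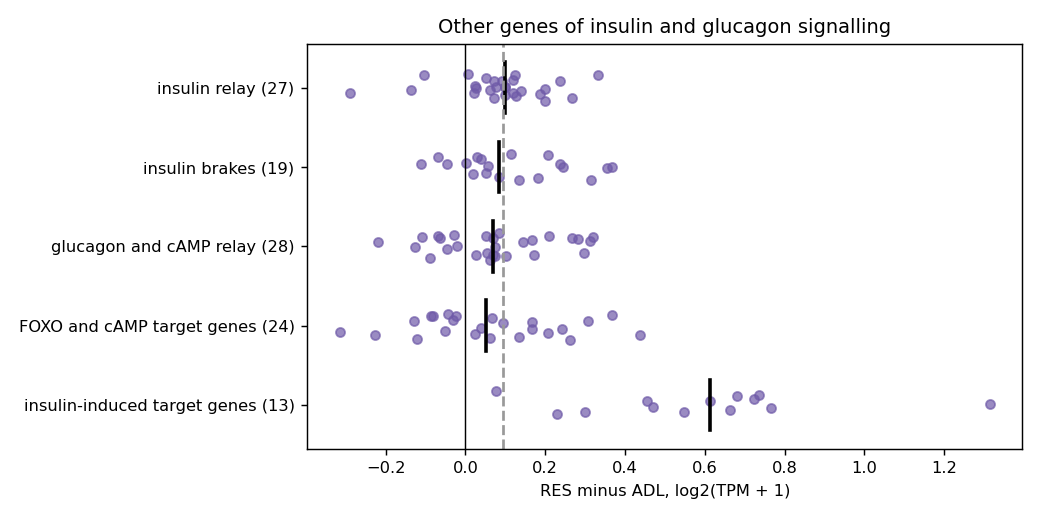
RES minus ADL on the log2(TPM + 1) scale for each tested gene (points) of the 5 lists, with the number of tested genes in parentheses, the list median as a black line and the median of all genes tested, 0.09, as a dashed line; the vertical position within a list carries no meaning. The medians of 4 lists lie between 0.05 and 0.10, and that of the insulin-induced genes is 0.61.

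Genes whose pattern over the 8 lambs was most like that of a member were found by the mean absolute difference of standardised log2(TPM + 1) values. As a description, the closest to INSR was DAPK2, a kinase gene, at 0.164 SD units, where the median gene of 13436 lay at 0.999. KEAP1 was closest to IRS1 (0.14), HP1BP3 to PIK3R1 (0.177), ARGLU1 to FOXO1 (0.118) and ZNHIT3 to GCGR (0.159). The closest to the other members lay farther off, with DNAL4 for IRS2 (0.218), PQBP1 for AKT1 (0.234), VPS16 for AKT2 (0.228) and LRRC47 for FOXO3 (0.267). No other member was among the 3 closest genes of any member.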

How the data were processed

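Poly(A) RNA from RNAlater-preserved liver was sequenced in pairs of 100 bases, per the labels' protocols. Named in the submitters' processing notes are DESeq2 1.12.4 and bcl2fastq 1.8.4. The sources used here give no aligner, counter, strand setting or genome build, so how reads shared by related genes were counted is unknown. The authors deposited TPM values per lamb with the gene length behind them, per the file headers. Per the file headers, the authors' DESeq2 result stands beside them: a normalized mean count (a signal scaled by size factors), log2 fold changes with standard errors, a Wald score and p-values.

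TPM times gene length, divided by the smallest value above 0 in a library, gave whole reads for 100% of values within 1e-06; their size-factor means gave the deposited mean counts with a ratio of 1. Each library's reads exceeded sampling noise in their difference from every other library of its group. Groups came from the sample titles and columns from the titles in the header.

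The groups were compared with limma 3.58.1 (eBayes with a trend) in R 4.3.3 on log2(TPM + 1), which understates changes of low genes, for genes averaging 1 TPM or more. P-values were adjusted (Benjamini-Hochberg) across every gene in the fit, with 0.05 as the threshold. Ratios were compared by an exact permutation test over 70 assignments. Scripts were tested on simulated data. Alternatives were other pseudocounts (0.1 and 5), filters, scalings, voom with size factors, array weights, robust eBayes, leaving out each lamb and the lamb number as a block. Of 173 list entries 171 were found, 9 through a RefSeq gene table (assembly ARS-UI_Ramb_v3.0) and 1 through an alias in the file.

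The members, lists and tests were chosen with earlier results of these data known. Named genes are the 9 members and, per list, those called, otherwise the 2 with the smallest p on each side of 0, and the 2 with the highest mean TPM; others are said to lie outside the rule. For each member the 3 most similar genes were found and the closest is printed. Some genes are not reported here.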

Additional observations from a re-analysis of the deposited data

Results flagged for a closer look

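Of 72 groups of 4 lambs checked (the members, the named list genes and the ratios, in ADL and in RES), 2 held a lamb far from the other lambs of its group; chance flags about 1 in 20 groups. INSR stood at 22.2 TPM in RES lamb 4, against 14.5 to 15.8 TPM in the other RES lambs, a gap of 0.8292 of the group's range, barely past the critical value. SOS1 stood at 7.10 TPM in ADL lamb 3, against 8.03 to 8.18 TPM in the other ADL lambs, a gap of 0.868 of the range.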

How the results depend on the processing

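No member was called under any of the alternatives run, and IRS1, INSR, PIK3R1, AKT2 and GCGR kept a difference above 0 in all of theirs. The 4 lambs per group limit what can be seen in either direction. The upper ends of the 95% intervals lay between 0.29 and 0.64 log2 units. The lower ends lay between -0.54 (IRS2) and -0.03 (GCGR). Division by size factors put AKT1 at -0.033 and IRS2 at -0.027; quantile normalization put AKT1 at -0.060, IRS2 at -0.0098, FOXO1 at -0.0050 and FOXO3 at -0.026; voom put AKT1 at -0.037. With 1 lamb left out at a time, AKT1 ran from -0.00018 (without RES lamb 4) to 0.12 and IRS2 from -0.19 (without ADL lamb 2) to 0.21. IRS1 ran from 0.090 (without ADL lamb 1) to 0.23 (without ADL lamb 4), PIK3R1 from 0.11 (without RES lamb 4) to 0.30 (without RES lamb 1), FOXO1 from 0.050 (without ADL lamb 4) to 0.19 (without RES lamb 2) and FOXO3 from 0.017 (without ADL lamb 2) to 0.18 (without ADL lamb 3). IRS2 could not be fitted at a minimum mean of 5 TPM. The cause of these sign changes was not tested.

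The IRS2 over IRS1 difference ran from -0.48 to 0.30 and that of FOXO3 over FOXO1 from -0.16 to 0.088 with 1 lamb left out. That of AKT2 over AKT1, 0.11 over all lambs, ran from 0.016 (without RES lamb 3) to 0.18 (without RES lamb 4). The median of the insulin relay was 0.0037 with size factors, -0.0070 with quantile normalization and 0.0049 with voom. In the same order the brakes were at -0.0067, -0.030 and -0.0073, and the cyclic AMP relay at -0.023, -0.029 and -0.026. The FOXO target list ran from -0.083 (without RES lamb 1) to 0.099 with 1 lamb left out.

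The count of genes called over the whole table, 0 in the main fit, was 1 with no filter on low values (LOC101120736, at 0 TPM in all ADL lambs and 0.281 ± 0.0101 TPM in RES) and 0 to 1 with 1 lamb left out (RGS6 without ADL lamb 1, adjusted p = 0.0202); both genes are named after their values were seen. At an unadjusted p under 0.05, 1393 genes were higher and 201 lower; size factors gave 457 and 571, quantile normalization 419 and 595, and voom 497 and 555. No filter gave 366 lower genes, a minimum of 5 TPM 125, leaving out RES lamb 1 319, and leaving out ADL lamb 3 780 higher genes.

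The deviations of same-numbered lambs from their group means had correlations of -0.12 to 0.153 over the 4 pairs. Those of differently numbered lambs ran from -0.142 to 0.0755. Correlations this weak cannot decide whether the numbers pair the lambs. With the lamb number as a replicate block 0 genes were called and GCGR had an adjusted p of 0.44.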

Other observations

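Over the 8 lambs, 36 pairs of the 9 genes were correlated on the log2(TPM + 1) scale. None passed adjustment over the 36 pairs by either coefficient. At an unadjusted exact p under 0.05 stood 1 pair by Pearson's r and 2 others by Spearman's rho. The pair by r was IRS2 and FOXO3, with Pearson's r = 0.719 (exact permutation p = 0.0435, adjusted 0.533) and Spearman's rho = 0.548 (exact permutation p = 0.171, adjusted 0.56). Without the 2 lambs farthest from the median of IRS2, r was 0.572. It was 0.931 within the 4 ADL lambs and 0.164 within the 4 RES lambs, groups too small for a correlation to be tested. The pairs by rho were IRS2 with PIK3R1 and INSR with GCGR. For IRS2 and PIK3R1, rho was -0.810 (exact permutation p = 0.0218, adjusted 0.415) and r was -0.646 (exact permutation p = 0.0849, adjusted 0.533), or -0.658 without the 2 lambs farthest from the median of IRS2. For INSR and GCGR, rho was 0.762 (exact permutation p = 0.0368, adjusted 0.415) and r was 0.608 (exact permutation p = 0.103, adjusted 0.533), or 0.862 without the 2 lambs farthest from the median of INSR. Within the ADL and RES lambs r was -0.938 and -0.521 for the first pair, and 0.772 and 0.053 for the second. With TPM over size factors, r over the 8 lambs was 0.757 for IRS2 and FOXO3. On that scale it was -0.730 for IRS2 and PIK3R1 and 0.525 for INSR and GCGR.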
